A study of Mus musculus with 24 samples.

Results

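The 10 genes described here encode NRF2, enzymes that NRF2 controls, and the core antioxidant enzymes of liver: Nfe2l2, Nqo1, Gclc, Gclm, Txnrd1, Srxn1, Cat, Sod1, Sod2 and Gpx1. They are a list of named genes that no measured value was used to draw up, though earlier results of these data were known, and all 10 were found among the 52636 genes of the count files and passed the filter on low counts. Their transcripts were followed in polysome-associated RNA, that is, messenger RNA carrying ribosomes, from livers of C57BL/6 mice in 12 groups of diet and time of day. In the calorie restricted (CR) groups, mice received 30% fewer calories for 3 months from an age of 2 months. The comparison groups ate ad libitum (AL), and both diets were sampled at 5 months of age at zeitgeber times (ZT) 2, 6, 10, 14, 18 and 22 h, with 2 libraries in each group. At ZT22 the AL libraries are named 2C and 2d, with the same number. The labels do not say whether they come from 1 sample, and they are counted as 2. The libraries are poly(A)-selected and carry no strand. The labels do not say that the libraries of a group are separate animals, and p-values cover only the spread among them, technical spread included. Total RNA was not analysed here, so amount of transcript and loading on polysomes cannot be told apart. In whole liver, fewer cells of a type and less RNA per cell cannot be told apart either.

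NRF2, the product of Nfe2l2, is a transcription factor that KEAP1 holds in the cytoplasm and hands to the proteasome until oxidants or electrophiles modify KEAP1. It then enters the nucleus, pairs with a small MAF protein and binds antioxidant response elements in the promoters of genes for quinone reduction, glutathione synthesis and thioredoxin recycling. Superoxide dismutases turn superoxide into hydrogen peroxide, which catalase in peroxisomes and glutathione peroxidases in cytosol and mitochondria remove. These enzymes are abundant in hepatocytes, which handle drugs and fatty acids.

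Depth was 16.5 to 60.8 M (mega) reads per library in CR and 13.8 to 37.6 M in AL. Ribosomal RNA features held 1.90 to 62.1% of them in CR and 1.02 to 62.2% in AL, and 5.64 to 59.6 M reads lay elsewhere. At single hours this share could differ between the diets. At ZT22 it was 61.3 and 62.2% in AL and 2.94 and 43.8% in CR. At ZT2 it was 26.3 and 21.9% in AL and 62.1 and 44.7% in CR. Both AL libraries were also higher at ZT14 and both CR libraries at ZT6, and the diets overlapped at ZT10 and ZT18. The part of this share in values at single hours was not tested. Hepatocyte markers were abundant in all libraries: albumin, Alb, averaged 39898 CPM in CR and 32384 CPM in AL, and 0 of 7 tested hepatocyte markers were called between the diets. CPM are read counts per M reads, scaled to library size and composition. Of 11 Kupffer cell markers, 10 were lower and 1 higher in CR, with a summed level of 124 to 225 CPM in CR and 226 to 654 CPM in AL. Red blood cell markers, whose cells also hold catalase, Sod1 and Gpx1, summed to 527 to 4400.0 CPM in CR and 381 to 2535 CPM in AL, with Alas2 lower and 0 of the 4 globin genes called. Stellate cell markers were higher in CR for 4 of 6, with a sum of 179.9 to 313 CPM in CR and 81.6 to 319.7 CPM in AL. Of 5 neutrophil markers 3 could be tested and 0 were called, with a sum of 2.31 to 35.6 CPM in CR and 2.05 to 103 CPM in AL, and the defining markers Ly6g and Mpo were at 0 in 23 and 16 of 24 libraries. The part of these cells in the results below was not tested. Of the 24 libraries 3 stood apart. The AL library 2C of ZT22 had acute phase markers at 40095 CPM in sum, against at most 8093 CPM in the other 23, neutrophil markers at 103 against at most 35.6 CPM, and Kupffer cell markers at 654 against at most 509 CPM. With 2C included, 3 of 7 acute phase markers (Saa1, Saa2 and Saa3) were called lower in CR and 0 higher. The part of this state in the results below was not tested. The second CR library of ZT6 held 2.86 CPM of Cyp2b9, a female-biased gene at 108 to 349 CPM in the 10 CR libraries other than this one and CR ZT18 2 and at 0.602 to 2.71 CPM in AL, but 2.99 CPM of the male-biased Hsd3b5, which lay at 0.238 to 5.11 CPM in those 10 and at 49.5 to 311 CPM in AL. The second CR library of ZT18 held 135 CPM of Cyp2b9 and 72.6 CPM of Hsd3b5. Without 2C, Nqo1 and Cat were still the 2 of the 10 genes called on the diet average. Values at ZT6 that the text turns on are also given without CR ZT6 2.

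Promoter letters are shown to let a reader see which of the genes carry a form of the core that NRF2 and MAF proteins bind close to their start. The core was searched as TGACNNNGC on both strands in the 250 bases before each RefSeq start (build GRCm38.p6), where 9 of the 10 genes had an entry, and Gclc had none. It occurred in 4 of the 9 genes, Nfe2l2, Gclm, Txnrd1 and Sod1, and in 11.5% of 27025 genes with an entry. Txnrd1 has 3 starts in that table, and the match is at the second. The element TGANTCA, the site of AP-1 and of MAF dimers, occurred in 1 of the 9, Srxn1, with 2 copies, against 7.82% of genes. In the second copy the letters GC follow directly, which gives the searched core with G in place of C. The search for the core did not cover that form. Matches of the searched motifs do not overlap in these windows. The E-box CACGTG of clock proteins and the forkhead element GTAAACA occurred in 0 of the 9, against 6.86% and 3.54% of genes. A match is a description of letters and not a site of binding. Letters further than 250 bases from a start were not searched, so a gene without a match here may carry the motif elsewhere. Capitals mark the matches in the windows around them, written 5′ to 3′ along the gene:
Nfe2l2 (chr2:75704883-75704913, minus strand): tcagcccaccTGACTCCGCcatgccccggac
Gclm (chr3:122245411-122245443, plus strand): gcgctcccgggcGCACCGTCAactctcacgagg
Txnrd1 (chr10:82859102-82859134, plus strand): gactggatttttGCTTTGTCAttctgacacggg
Sod1 (chr16:90220694-90220726, plus strand): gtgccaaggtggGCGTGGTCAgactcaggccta
Srxn1, first copy (chr2:152105410-152105440, plus strand): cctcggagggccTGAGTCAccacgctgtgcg
Srxn1, second copy (chr2:152105467-152105497, plus strand): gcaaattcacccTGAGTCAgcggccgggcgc
The 250 bases before the starts of Nqo1 and Cat, the 2 genes that were called between the diets, held none of these motifs and are shown whole:
Nqo1 (chr8:107403206-107403455, minus strand): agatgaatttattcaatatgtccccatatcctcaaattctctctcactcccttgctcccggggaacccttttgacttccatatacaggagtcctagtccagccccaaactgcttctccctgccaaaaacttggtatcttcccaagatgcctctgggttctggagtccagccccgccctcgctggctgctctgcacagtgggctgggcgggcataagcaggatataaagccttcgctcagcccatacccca
Cat (chr2:103485154-103485403, minus strand): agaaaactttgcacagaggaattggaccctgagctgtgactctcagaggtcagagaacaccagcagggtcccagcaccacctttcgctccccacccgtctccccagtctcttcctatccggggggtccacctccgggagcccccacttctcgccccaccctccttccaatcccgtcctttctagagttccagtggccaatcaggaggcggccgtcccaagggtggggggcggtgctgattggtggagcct

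The diets averaged over the 6 time points were compared first, to ask which of these genes differ between the diets on the mean of the day. A call on this average does not mean a difference at every hour. Nqo1, which encodes NAD(P)H quinone dehydrogenase, rose 2.73-fold in CR. Cat, which encodes catalase, fell to 0.707 of its AL level in CR. The other 8 genes, among them Nfe2l2 itself, the glutathione synthesis pair Gclc and Gclm and the dismutases, did not pass the test. Of all 15490 tested genes 12.7% were called (5.6% higher and 7.05% lower), so 1 higher and 1 lower gene among 10 is near that background. The median change of the 10 was -0.05 log2 units, against -0.02 over all tested genes. Calls were made by the quasi-likelihood test of edgeR, at 0.05 after Benjamini-Hochberg adjustment over all tested genes.

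**Figure D1:**
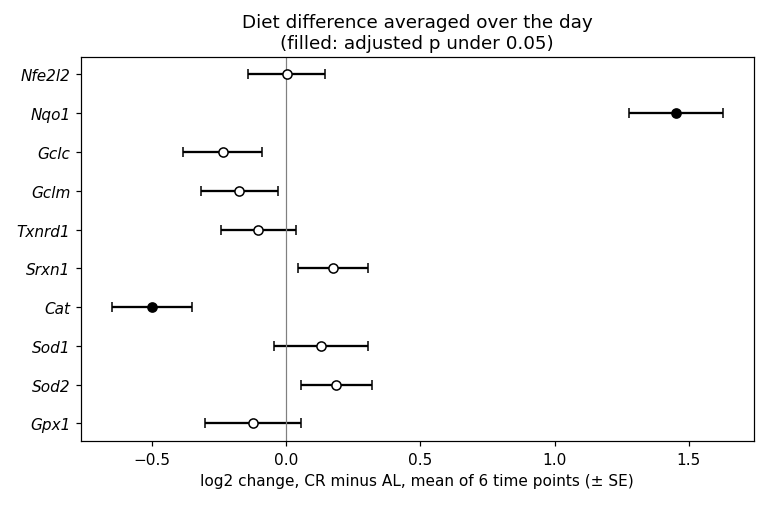
Log2 change between the diets (CR minus AL, mean of the 6 time points) for each of the 10 genes, with bars for the SE and filled points for adjusted p under 0.05. Nqo1 lies at 1.45, Cat at -0.50 and the other 8 between -0.24 and 0.19.

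Nfe2l2 (ENSMUSG00000015839.6, chromosome 2, 75675513 to 75704641, minus strand, GRCm38) encodes NRF2. CR libraries had Nfe2l2 CPM of 17.8 and 25.9 at ZT2, 24.9 and 14.6 at ZT6, 14.8 and 25.0 at ZT10, 21.3 and 14.7 at ZT14, 13.5 and 13.8 at ZT18 and 16.6 and 17.3 at ZT22. AL libraries had Nfe2l2 CPM of 28.3 and 22.0 at ZT2, 20.7 and 13.6 at ZT6, 15.5 and 14.2 at ZT10, 16.3 and 10.2 at ZT14, 15.3 and 17.8 at ZT18 and 25.4 and 25.1 at ZT22. Its level ranged from 13.5 to 25.9 CPM in CR (median 17.0) and from 10.2 to 28.3 CPM in AL (median 17.1). The ranges overlap almost fully, and the change on the diet average was 0.00 ± 0.14 log2 units (± SE here and below, adjusted p = 1.00), with a sign that changes between alternatives. Both CR libraries lay below both AL libraries at ZT18 and ZT22 (-0.28 ± 0.35 and -0.58 ± 0.35 log2 units, adjusted p = 0.850 and 0.464), and the libraries overlapped at the other 4 time points. For hours at which the groups lay apart, the share of all tested genes is given for Nqo1 and Cat only. It was not counted for the other genes.

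Nqo1 (ENSMUSG00000003849.8, chromosome 8, 107388225 to 107403206, minus strand) encodes a cytosolic enzyme that reduces quinones by a pair of electrons at once and is a classical NRF2 target. CR livers had CPM of 6.91 and 7.95 at ZT2, 6.53 and 1.99 at ZT6, 7.89 and 8.37 at ZT10, 7.15 and 8.72 at ZT14, 8.88 and 8.25 at ZT18 and 6.69 and 5.51 at ZT22 in their 2 libraries. AL livers had CPM of 2.15 and 2.44 at ZT2, 3.35 and 2.24 at ZT6, 2.99 and 3.69 at ZT10, 2.29 and 2.62 at ZT14, 1.76 and 2.13 at ZT18 and 2.66 and 2.23 at ZT22. Both CR libraries exceeded both AL libraries at 5 of 6 time points, where 1.96% of tested genes had 5 or 6 such time points, and at ZT6 the groups overlapped through the second CR library. Across the day 11 of 12 CR libraries lay above the highest AL library, as did at least as many in 0.355% of tested genes. For 0 of the 10 genes were the 12 CR and 12 AL libraries fully apart, which held for 0.284% of tested genes. The mean was 7.07 ± 1.89 CPM in CR and 2.55 ± 0.557 CPM in AL (SD, n = 12 each), and the change was 1.45 ± 0.18 log2 units (adjusted p = 5.12e-06). In the order of the group means all 6 CR groups came before all 6 AL groups, from CR ZT18 (8.57 CPM) through CR ZT6 (4.26 CPM) and AL ZT10 (3.34 CPM) to AL ZT18 (1.94 CPM), and neighbours overlapped except CR ZT2 with CR ZT22 and AL ZT2 with AL ZT18. Without the second CR library of ZT6 the CR range was 5.51 to 8.88 CPM. The gene was counted by 23 to 694 reads per library, so a single library's value has a counting error that is not small at the lower end.

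The size of the Nqo1 difference was also taken at each hour. It was 1.69 ± 0.43 log2 units at ZT2, 0.58 ± 0.43 at ZT6, 1.28 ± 0.42 at ZT10, 1.70 ± 0.44 at ZT14, 2.13 ± 0.43 at ZT18 and 1.32 ± 0.44 at ZT22. ZT18 alone passed adjustment (adjusted p = 0.0266), and it was the only call among 60 tests of the 10 genes at 6 time points, where 0.458% of all genes were called higher at ZT18. All tested genes were called at 0.562% at ZT2, 0.387% at ZT6, 0.742% at ZT10, 1.7% at ZT14, 0.562% at ZT18 and 0.936% at ZT22. The ZT18 call was lost when any of its 4 libraries was left out, with values from 2.00 to 2.28 log2 units and adjusted p from 0.0508 to 0.246. In those fits 1 arm is a single library, assumed to vary like the other groups. Without a composition factor in the scaling the ZT18 value was 2.33 (adjusted p = 0.0650) and Nqo1 was called at ZT22 in its place. ZT2 (0.0831) and ZT14 (0.0507) missed the threshold and passed it by DESeq2 (0.00534 and 0.00731). Without the second CR library of ZT6, the low one, the value at that hour was 1.20 ± 0.42 (adjusted p = 0.355) in place of 0.58, and without the first it was -0.51. Whether the difference varied over the day was tested directly and not called (F-test, adjusted p = 0.701).

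**Figure D2:**
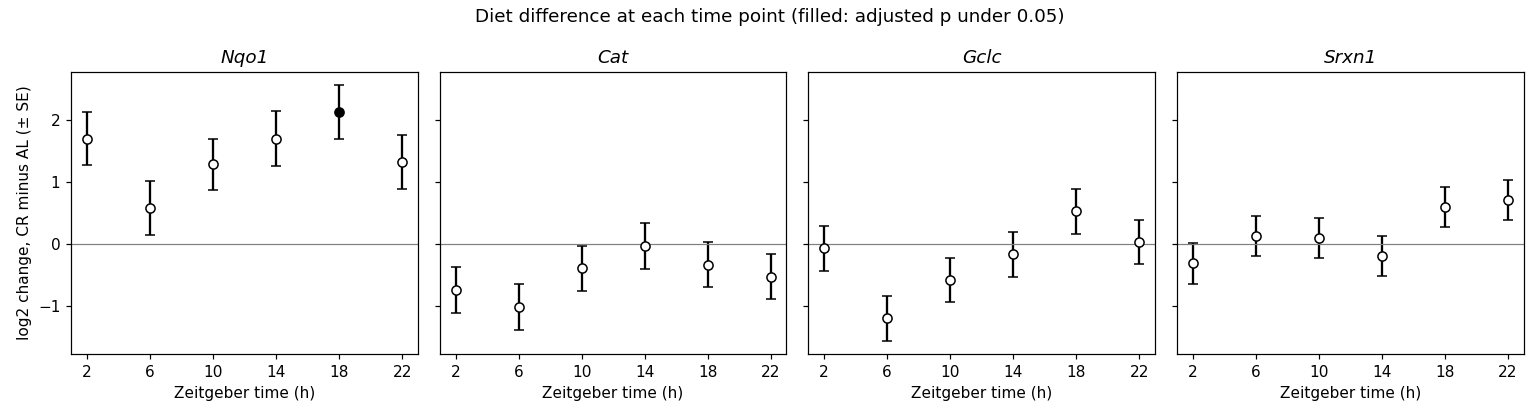
Log2 change between the diets (CR minus AL) at each zeitgeber time for Nqo1, Cat, Gclc and Srxn1, with SE bars and filled points for adjusted p under 0.05. Nqo1 lies above 0 at all 6 time points, between 0.58 and 2.13, and Cat below 0 at all 6, between -1.01 and -0.03, while Gclc and Srxn1 cross 0.

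Gclc (ENSMUSG00000032350.9, chromosome 9, 77754535 to 77794485, plus strand) encodes the catalytic subunit of glutamate-cysteine ligase, the rate-limiting enzyme of glutathione synthesis. In CR the 2 libraries had CPM of 165 and 128 at ZT2, 61.4 and 45.0 at ZT6, 71.5 and 87.9 at ZT10, 62.4 and 40.7 at ZT14, 126 and 93.8 at ZT18 and 124 and 167 at ZT22. In AL the same gene had CPM of 167 and 139 at ZT2, 134 and 109 at ZT6, 147 and 90.4 at ZT10, 58.2 and 57.0 at ZT14, 88.0 and 63.9 at ZT18 and 94.6 and 189 at ZT22. Both diets had high means at ZT22 and ZT2 and low means at ZT14. In AL the high mean at ZT22 came from 2d (189 CPM), with 2C at 94.6 CPM. CR was also low at ZT6, where both CR libraries lay below both AL libraries, as at ZT10 (at ZT6 -1.19 ± 0.37 log2 units, adjusted p = 0.168). Without CR ZT6 2 the ZT6 value was -0.99 ± 0.46 (adjusted p = 0.488). At ZT18 both CR libraries lay above both AL libraries (0.53 ± 0.36, adjusted p = 0.642). The means over the day were 97.7 ± 43.8 CPM in CR and 111 ± 43.7 CPM in AL (SD, n = 12 each), with a change of -0.24 ± 0.15 (adjusted p = 0.329). In the order of the 12 groups the highest 7, from AL ZT2 (153 CPM) to CR ZT18 (109.7 CPM), overlapped their neighbours, CR ZT18 lay clear of the next, CR ZT10 (79.7 CPM), and the lowest were AL ZT14, CR ZT6 and CR ZT14 at 57.6, 53.2 and 51.6 CPM.

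Gclm (ENSMUSG00000028124.15, chromosome 3, 122245557 to 122270732, plus strand) encodes the modifier subunit of the same ligase, which lowers the enzyme's need for glutamate. CR libraries had Gclm CPM of 154 and 178 at ZT2, 108 and 64.9 at ZT6, 105 and 112 at ZT10, 166 and 119 at ZT14, 143 and 111 at ZT18 and 125 and 132 at ZT22. AL libraries had Gclm CPM of 140.0 and 141 at ZT2, 176 and 119 at ZT6, 181 and 149 at ZT10, 151 and 87.8 at ZT14, 119 and 165 at ZT18 and 99.4 and 161 at ZT22. It ranged from 64.9 to 178 CPM in CR (median 122) and from 87.8 to 181 CPM in AL (median 145), and the diets overlapped. The change was -0.18 ± 0.14 log2 units (adjusted p = 0.483). Both CR libraries lay below both AL libraries at ZT6 (-0.77 ± 0.35, adjusted p = 0.343) and at ZT10 (-0.60 ± 0.35, 0.569), and above them at ZT2 (0.24 ± 0.35, 0.953), with no call. Without CR ZT6 2, the lowest library, the ZT6 value was -0.46 ± 0.42 (adjusted p = 0.728). Across the 12 group means of log2 CPM, Gclc and Gclm had a Pearson r of 0.56. Exons of Gclm overlap Gm17494 on the other strand and Gm6061, and 4.58% of its 50-base words occur in transcripts of other genes.

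Txnrd1 (ENSMUSG00000020250.10, chromosome 10, 82833951 to 82897712, plus strand) encodes the cytosolic thioredoxin reductase, a selenoprotein that returns thioredoxin to its reduced form. CR libraries had Txnrd1 CPM of 143 and 86.0 at ZT2, 61.5 and 75.0 at ZT6, 50.1 and 95.2 at ZT10, 82.8 and 50.4 at ZT14, 79.5 and 62.8 at ZT18 and 79.1 and 104 at ZT22. AL libraries had Txnrd1 CPM of 93.1 and 78.4 at ZT2, 58.7 and 74.1 at ZT6, 75.2 and 89.6 at ZT10, 86.2 and 95.8 at ZT14, 70.2 and 81.4 at ZT18 and 118 and 117 at ZT22. It ranged from 50.1 to 143 CPM in CR (median 79.3) and from 58.7 to 118 CPM in AL (median 83.8), with a change of -0.10 ± 0.14 log2 units (adjusted p = 0.711). Both CR libraries lay below both AL libraries at ZT14 and ZT22 (-0.45 ± 0.34 and -0.36 ± 0.34), with no call. The highest groups were AL ZT22 with 118 CPM and CR ZT2 with 115 CPM, and each group overlapped its neighbour in the order of all 12.

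Srxn1 (ENSMUSG00000032802.8, chromosome 2, 152105516 to 152111376, plus strand) encodes sulfiredoxin, which repairs peroxiredoxins that peroxide has over-oxidised. CR livers had Srxn1 at CPM of 27.8 and 29.7 at ZT2, 15.9 and 26.4 at ZT6, 32.0 and 18.7 at ZT10, 13.8 and 14.4 at ZT14, 29.0 and 30.0 at ZT18 and 49.1 and 35.1 at ZT22. The AL libraries had CPM of 37.2 and 34.1 at ZT2, 18.9 and 19.8 at ZT6, 27.6 and 20.0 at ZT10, 18.2 and 13.8 at ZT14, 16.5 and 22.4 at ZT18 and 27.2 and 24.1 at ZT22. CR peaked at ZT22 and AL at ZT2, and both diets were lowest at ZT14, with 14.1 CPM in CR and 16.0 CPM in AL. CR lay above AL at ZT18 and ZT22 (0.59 ± 0.32 and 0.71 ± 0.32 log2 units) and below at ZT2 (-0.31 ± 0.32), with groups apart at these 3 hours and no call (adjusted p = 0.536, 0.320 and 0.926). For Srxn1 the share of all tested genes with groups apart at as many hours was not counted. Without a composition factor in the scaling Srxn1 was called at ZT22. The diet average was 0.17 ± 0.13 log2 units (adjusted p = 0.442). Of the 10 genes, Gclc and Srxn1 were the pair most alike over the 12 group means, with r = 0.81.

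**Figure D3:**
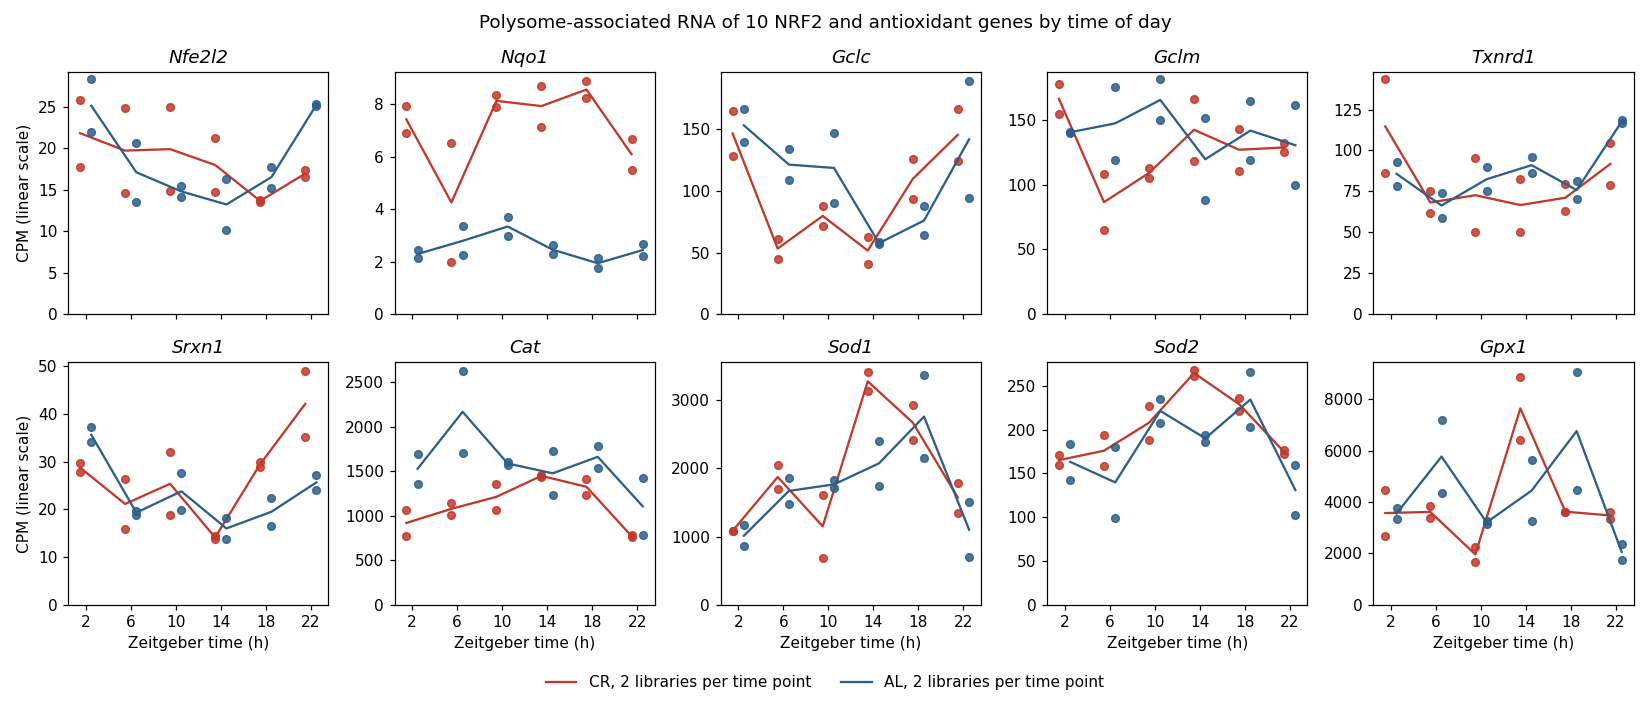
CPM of each of the 10 genes in each library against zeitgeber time, with a line through the mean of the 2 libraries of a group, CR in red and AL in blue. The Nqo1 panel shows CR above AL with the exception of 1 CR library of ZT6 at 1.99 CPM, the Cat panel shows CR below AL with the diets meeting at ZT14, and the Sod1 and Sod2 panels are highest at ZT14 or ZT18 in both diets.

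Cat (ENSMUSG00000027187.10, chromosome 2, 103453849 to 103485160, minus strand) encodes catalase. CR livers had CPM of 775 and 1059 at ZT2, 1142 and 1009.7 at ZT6, 1064 and 1358 at ZT10, 1433 and 1460.1 at ZT14, 1415 and 1232 at ZT18 and 763 and 778 at ZT22 in their 2 libraries. AL livers had CPM of 1693 and 1358 at ZT2, 2627 and 1704 at ZT6, 1572 and 1599 at ZT10, 1723 and 1226 at ZT14, 1534 and 1786 at ZT18 and 784 and 1424 at ZT22. Both CR libraries lay below both AL libraries at 5 of 6 time points, where 2.93% of tested genes had 5 or 6 such time points, and at ZT14 the diets overlapped. Catalase messenger averaged 1124 ± 262 CPM in CR and 1586 ± 429 CPM in AL (SD, n = 12 each), and it fell by 0.50 ± 0.15 log2 units (adjusted p = 0.0299). The difference was largest at ZT6 (-1.01 ± 0.37, adjusted p = 0.243, and -0.93 ± 0.47 without CR ZT6 2, 0.524) and smallest at ZT14 (-0.03 ± 0.37), and its variation over the day was not called (adjusted p = 0.835). The call was lost when any 1 of 13 of the 24 libraries was left out, with adjusted p from 0.0142 to 0.0918 over the 24 and values from -0.57 to -0.42. These were CR ZT2 1, both of CR ZT14, CR ZT18 2, both of CR ZT22, AL ZT2 1, AL ZT6 1, both of AL ZT10, AL ZT14 1, AL ZT18 2 and AL ZT22 2d, where the last number is the library's. It was also lost without the second CR libraries of ZT6 and ZT18 (adjusted p = 0.0825). The order of the group means ran from AL ZT6 (2165 CPM) to CR ZT22 (770.2 CPM), and within each diet ZT22 had the lowest mean. In AL its libraries were far apart, with 784 CPM in 2C and 1424 CPM in 2d. The latter lay above AL ZT2 2 (1358 CPM) and AL ZT14 2 (1226 CPM). Without 2C the diet difference of Cat at ZT22 was -0.88 log2 units in place of -0.52.

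Sod1 (ENSMUSG00000022982.9, chromosome 16, 90220754 to 90226329, plus strand) encodes the copper-zinc superoxide dismutase of the cytosol. CR livers had CPM of 1087 and 1084 at ZT2, 1692 and 2058 at ZT6, 1613 and 689.6 at ZT10, 3421 and 3139 at ZT14, 2415 and 2933 at ZT18 and 1794 and 1353 at ZT22 in their 2 libraries. AL livers had CPM of 1166 and 859 at ZT2, 1484 and 1858 at ZT6, 1824 and 1709 at ZT10, 2402 and 1749.9 at ZT14, 3375 and 2149 at ZT18 and 694 and 1509 at ZT22. In both diets the mean was lowest at ZT2 and highest at ZT14 or ZT18, with 3280.0 CPM at ZT14 in CR and 2762 CPM at ZT18 in AL. The lowest single libraries lay elsewhere, at ZT10 in CR (689.6 CPM) and in 2C of ZT22 in AL (694 CPM). The libraries of ZT2 overlapped those of ZT10 in CR and of ZT22 in AL. The change on the diet average was 0.13 ± 0.18 log2 units (adjusted p = 0.714), and the ranges overlapped. Both CR libraries lay below both AL libraries at ZT10 (-0.62 ± 0.43) and above them at ZT14 (0.66 ± 0.43), with no call.

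Sod2 (ENSMUSG00000006818.4, chromosome 17, 13006846 to 13040063, plus strand) encodes the manganese dismutase of mitochondria. CR libraries had Sod2 CPM of 171 and 159.7 at ZT2, 194 and 158 at ZT6, 228 and 188 at ZT10, 269 and 261 at ZT14, 222 and 237 at ZT18 and 173 and 177 at ZT22. AL libraries had Sod2 CPM of 184 and 142 at ZT2, 99.0 and 181 at ZT6, 208 and 235 at ZT10, 186 and 194 at ZT14, 266 and 203 at ZT18 and 102 and 160.1 at ZT22. It ranged from 158 to 269 CPM in CR (median 191) and from 99.0 to 266 CPM in AL (median 185), with a change of 0.19 ± 0.13 log2 units (adjusted p = 0.400). Both CR libraries lay above both AL libraries at ZT14 and ZT22 (0.48 ± 0.32 and 0.41 ± 0.32), with no call. Its hours of high level were those of Sod1, with 265 CPM at ZT14 in CR and 234 CPM at ZT18 in AL, and the r between both genes over the 12 group means was 0.70. Of its 50-base words 21.0% occur in transcripts of other genes, mostly in AC166110.4 and Rps6ka2, and 3.42% of those of Sod1 occur in Gm8566, so part of these reads is uncertain. For Sod1 and Sod2 the reference annotation holds a later version of the gene than the files.

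Gpx1 (ENSMUSG00000063856.7, chromosome 9, 108338903 to 108340343, plus strand) encodes the main glutathione peroxidase of cytosol, a selenoprotein. CR livers had CPM of 2668 and 4468 at ZT2, 3857 and 3364 at ZT6, 2257 and 1658 at ZT10, 8873 and 6411 at ZT14, 3622 and 3617 at ZT18 and 3627 and 3320.2 at ZT22 in their 2 libraries. AL livers had CPM of 3749 and 3345 at ZT2, 7183 and 4346 at ZT6, 3142 and 3266 at ZT10, 5627 and 3254 at ZT14, 4452 and 9061 at ZT18 and 2367 and 1742 at ZT22. CR lay above AL at ZT14 and ZT22 (0.78 ± 0.44 and 0.76 ± 0.44 log2 units). CR lay below AL at ZT6, ZT10 and ZT18 (-0.68 ± 0.44, -0.71 ± 0.44 and -0.90 ± 0.44). The groups did not overlap at these hours, and the share of all tested genes with such a pattern in both directions was not counted. No difference was called at a single hour. Without CR ZT6 2 the ZT6 value of Gpx1 was -0.59, and without CR ZT18 2 the ZT18 value was -0.91. Without AL ZT22 2C the ZT22 value was 1.00. The F-test of variation over the day, by edgeR, did not pass adjustment (adjusted p = 0.560). The change on the diet average was -0.12 ± 0.18 (adjusted p = 0.736).

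Per kilobase of exon, the scale on which genes can be compared, Gpx1 was the most abundant at 2761 ± 1346 CPM per kilobase in CR and 2980.4 ± 1446 in AL (SD, n = 12 each). Sod1 and Cat came next, with 489 ± 220.3 and 430.2 ± 100.1 in CR and 436 ± 180.0 and 607 ± 164 in AL, so Sod1 had the higher mean in CR and Cat the higher mean in AL, within overlapping spreads in both diets. Gclc, Gclm, Sod2, Txnrd1 and Srxn1 lay between 9.51 and 25.9 in CR and between 8.27 and 29.6 in AL. Nfe2l2 had 4.83 ± 1.23 in CR and 4.92 ± 1.47 in AL, and Nqo1 4.55 ± 1.22 in CR and 1.64 ± 0.359 in AL, the lowest of the 10 in both diets. The value of Sod2 depends on the annotated exons, which sum to 10008 bases in the reference.

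Time of day was tested within each diet by fitting a 24 h cosine curve. Of the 10 genes, 0 were called rhythmic in CR and 0 in AL by edgeR, against 1.94% and 0.42% of all tested genes. At an unadjusted p under 0.05 there were 3 in CR (Gclc, Srxn1 and Sod1) and 3 in AL (Nfe2l2, Gclc and Sod1), where 17.4% and 10.4% of all tested genes lay. DESeq2 called 1 in CR (Gclc) and 0 in AL, against 4.71% and 1.72% of all tested genes. For Gclc the amplitude, the distance from mean to peak, was 0.68 log2 units in CR with a peak at 22.9 h (adjusted p = 0.0813) and 0.63 in AL with a peak at 2.82 h (adjusted p = 0.287). Sod1 had amplitudes of 0.60 in CR and 0.59 in AL with peaks at 15.3 and 14.2 h, and Srxn1 0.48 in CR and 0.41 in AL with peaks at 23.1 and 1.90 h. A difference of the rhythm between the diets was called for 0 of the 10 by edgeR, where 0% of all tested genes were called. At an unadjusted p under 0.05 there was 1 (Nfe2l2, against 6.49% of all genes). DESeq2 called 0 of the 10, against 0.0387% of all tested genes. The test of whether the diet difference varied over the 6 time points likewise called 0 of the 10 and 0% of all genes by edgeR. At an unadjusted p under 0.05 there was 1 (Gpx1, against 8.63% of all genes). By DESeq2 it called 0 of the 10, against 188 (1.21%) of all tested genes.

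Genes whose pattern over the 12 group means was most like that of a member were sought among 5367 genes of at least 10 CPM, as a description of means that share libraries and scaling. For Nqo1 they were Sult1d1 (0.96), Cyp2c37 (0.94), Slc16a7 (0.94), a sulfotransferase, a cytochrome P450 and a monocarboxylate carrier, with Pearson r in parentheses. Those of Cat were Cyp2c67 (0.97), B2m (0.94), Akr1c6 (0.94), a cytochrome P450, a light chain of class I antigens and a steroid dehydrogenase. For Gclc they were Aqp8 (0.94), S1pr1 (0.93), Pid1 (0.91) and for Srxn1 Mtap (0.93), Selenoi (0.92), Tmem250-ps (0.92). Sod1 went with Mrpl58 (0.97), Rpl18 (0.97), Ttc36 (0.97) and Gpx1 with Urah (0.99), Map1lc3a (0.97), Cox7a2 (0.97). Nfe2l2 and Sod2 had mt-Co1 (0.85), Rmdn2 (0.85), Fbxw2 (0.85) and Ap1s1 (0.91), Asgr2 (0.90), Esrra (0.90), and Gclm and Txnrd1 had Nptn (0.90), Mboat7 (0.87), Itfg1 (0.84) and Tacc1 (0.88), Abce1 (0.87), Osbp (0.87).

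The rest of the pathway was read from 5 lists, on the same diet average. There 5.6% of all tested genes were called higher and 7.05% lower. Among 12 genes that control NRF2, 2 were higher and 0 lower, with a median of 0.17 log2 units. Both were MAF proteins: Mafg, a small MAF partner of NRF2, had 62.8 ± 23.6 CPM in CR and 38.7 ± 9.95 CPM in AL and rose by 0.66 ± 0.15 (adjusted p = 0.00393), and Maf, a large MAF protein, had 105 ± 65.6 CPM in CR and 62.6 ± 35.2 CPM in AL (SD, n = 12 each) and rose by 0.63 ± 0.16 (adjusted p = 0.0106). Keap1, the inhibitor of NRF2, had a change of 0.42 ± 0.15 (adjusted p = 0.0617), and Bach1, a repressor at the same elements, 0.01 ± 0.17.

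Other NRF2 targets moved in both directions. Of 27 tested, 9 were higher and 3 lower, against 5.6% and 7.05% of all tested genes. The median of the 27 was 0.12, where all tested genes had -0.02. Cbr1, a carbonyl reductase, had 107 ± 21.1 CPM in CR and 37.5 ± 13.4 CPM in AL and rose by 1.55 ± 0.15 log2 units (adjusted p = 1.68e-07). The glutathione transferase Gsta2 had 101 ± 41.6 CPM in CR and 23.5 ± 10.1 CPM in AL and rose by 2.09 ± 0.29 (adjusted p = 2.77e-05), and the efflux pump Abcc4 had 3.84 ± 1.97 CPM in CR and 0.757 ± 0.484 CPM in AL and rose by 2.23 ± 0.34 (adjusted p = 9.12e-05). Gstp1, a transferase that is high in male mouse liver, had 469 ± 339.6 CPM in CR and 2021 ± 1159.9 CPM in AL (SD, n = 12 each) and fell by 2.04 ± 0.26 (adjusted p = 1.20e-05). Words of 50 bases shared with other genes make up 49.8% of Gsta2, mostly with Gsta1, and 33.7% of Gstp1, mostly with Gstp2, so values of these single copies are uncertain. Hmox1, heme oxygenase 1, had a change of -0.22 ± 0.20 (adjusted p = 0.541).

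In the glutathione system 2 of 17 tested genes were higher and 3 lower, against 5.6% and 7.05% of all tested genes. The median of the 17 was -0.01. Glutaredoxin, Glrx, had 38.3 ± 12.9 CPM in CR and 21.9 ± 5.48 CPM in AL and rose by 0.78 ± 0.14 log2 units (adjusted p = 0.000465), and the secreted peroxidase Gpx3 had 17.6 ± 7.03 CPM in CR and 10.9 ± 4.19 CPM in AL and rose by 0.69 ± 0.19 (adjusted p = 0.0197). Mgst1, a transferase of membranes, had 1556 ± 268 CPM in CR and 2576 ± 677 CPM in AL and fell by 0.71 ± 0.15 (adjusted p = 0.00338). Chac1, which degrades glutathione, had 0.539 ± 0.509 CPM in CR and 1.13 ± 0.919 CPM in AL (SD, n = 12 each) and changed by -1.75 ± 0.49 (adjusted p = 0.0213), which became -0.43 and was no longer called without the AL library 2C of ZT22. The call was also lost without the second AL library of ZT2 (-1.52, adjusted p = 0.0622). The call of Gpx3 was lost without the first CR library of ZT2 (adjusted p = 0.0518) or without the second CR libraries of ZT6 and ZT18 (0.0562). Glutathione synthetase Gss and glutathione reductase Gsr had changes of 0.27 ± 0.14 and -0.04 ± 0.13 and were not called.

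Thioredoxins and peroxiredoxins gave 1 higher and 2 lower of 17, against 5.6% and 7.05% of all tested genes. The median of the 17 was -0.04. The mitochondrial thioredoxin reductase Txnrd2 had 47.5 ± 12.3 CPM in CR and 33.9 ± 9.65 CPM in AL and rose by 0.50 ± 0.13 log2 units (adjusted p = 0.0121), which was lost without AL ZT22 2C and AL ZT10 1 (0.42, adjusted p = 0.0691). Prdx4, the peroxiredoxin of the endoplasmic reticulum, had 67.4 ± 18.1 CPM in CR and 101 ± 41.4 CPM in AL and fell by 0.54 ± 0.13 (adjusted p = 0.00870), and the methionine sulfoxide reductase Msrb1 had 338 ± 125 CPM in CR and 499 ± 200.2 CPM in AL (SD, n = 12 each) and fell by 0.56 ± 0.15 (adjusted p = 0.0174). The call of Msrb1 was lost without AL ZT18 2 (adjusted p = 0.0502) or CR ZT22 2 (0.0617). Of 18 partners of the dismutases, of catalase and of selenoproteins, edgeR called 0, against 12.7% of all tested genes. DESeq2 also called 0 of the 18, against 2521 of 15490 tested genes. The median of the 18 by edgeR was 0.06. At an unadjusted p under 0.05 there were 2, Selenof and Sod3, named here after their values were seen. Without a composition factor in the scaling the calls of Maf, Mgst1, Gpx3, Txnrd2, Prdx4 and Msrb1 were lost with changes of the same direction, at adjusted p of 0.0599 for Maf and above for the others. Over the 5 lists together, 14 of 91 tested genes were higher and 8 lower, against 5.6% and 7.05% of all tested genes.

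**Figure D4:**
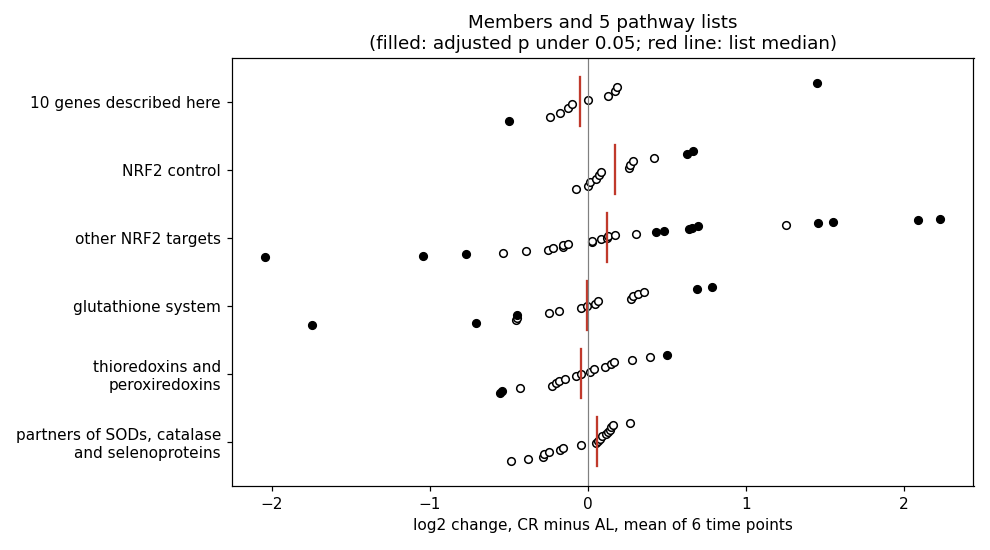
Log2 change between the diets (CR minus AL, mean of the 6 time points) of every tested gene of the 10 and of the 5 pathway lists, 1 point per gene, filled for adjusted p under 0.05, with the list median in red. The medians lie between -0.05 and 0.17, and the list of other NRF2 targets has the widest spread, from -2.04 to 2.23.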

How the data were processed

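Polysome-associated liver RNA of 24 libraries was analysed, 2 for each of 12 groups of diet and time. The authors deposited raw read counts per gene, made with HTSeq on GRCm38.p5, and FastQC and DESeq2 are also named, per the submitters' processing notes. Aligner and tool versions: not given in the sources used here. Counting without strand can merge overlapping genes.

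From the counts, 15490 of 52636 genes passed edgeR's filter on low counts. TMM-scaled counts were fitted with edgeR 4.0.16 (limma 3.58.1, R 4.3.3) by its quasi-likelihood test, with 1 mean per group, and p-values were adjusted by the Benjamini-Hochberg method over all tested genes at 0.05. The scripts were tested on simulated data. Depth was 13.8 to 60.8 M (mega) counts per library, of which 363 ribosomal RNA features took 1.02 to 62.2%, so low genes are the least precise. Each list names at most its 4 called genes of smallest p, and Keap1, Bach1, Hmox1, Gss and Gsr are named for their roles. The members and lists were chosen with earlier results of these data known. Alternatives were DESeq2 1.42.0, other scalings and filters, an additive model, a replicate block and leaving out libraries.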

Additional observations from a re-analysis of the deposited data

How the results depend on the processing

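The Nqo1 difference on the diet average lay between 1.27 and 1.56 log2 units under all 35 alternatives, with adjusted p of at most 0.000106. Without a composition factor in the scaling, 1170 genes were called on the diet average in place of 1960, 1 of the 10 described genes in place of 2, and 10 genes of the pathway lists in place of 22, and Cat was lost (-0.53, adjusted p = 0.165). Without AL ZT22 2C and AL ZT10 1, 1293 genes were called. Without CR ZT6 2 and CR ZT18 2, 1 of the 10 was called. Leaving out each library in turn gave 1412 to 2708 genes, 1 to 2 of the 10 and 17 to 26 of the pathway lists. At single time points there was 1 call, Nqo1 at ZT18. Without a composition factor it was lost and there were 2 others, Nqo1 and Srxn1 at ZT22. There were 3 by DESeq2 and without CR ZT6 2 and CR ZT18 2 (Nqo1 at ZT2, ZT14 and ZT18), 2 without a filter and with at least 1 CPM in 12 libraries (Nqo1 at ZT14 and ZT18), and 0 to 3 with 1 library left out. Rhythm in CR was called for 1 of the 10 (Gclc) by DESeq2 and without a filter, and for 0 to 1 with 1 library left out. The tests of diet by time, of rhythm in AL and of a difference in rhythm called 0 of the 10 under all 33 alternatives run on them.

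Nfe2l2 changed sign without a composition factor (-0.042), without a filter (-0.0096) and with the replicate block (-0.0031), and lay between -0.075 and 0.062 with 1 library left out. Nqo1 at ZT6 lay between -0.51 and 1.20 in that test. The cause was not tested. The labels of libraries of different groups share a number and do not say whether it marks a batch. Deviations of same-numbered libraries from their group means were correlated over 55 pairs of groups. The correlation ran from -0.25 to 0.51, with a median of -0.003 and 9 pairs over 0.1. With the replicate block, 1790 genes and 2 of the 10 were called. A covariate for ribosomal RNA, chosen after seeing the data, left 2 of the 10 called. Single-hour values without a library that stood apart were also added after seeing the data. With 2 libraries per group, single time points are the least precise.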

Other observations

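Genes of the pathway lists were also tested for a 24 h rhythm, which the lists above do not describe. In CR 4 of 91 were called and in AL 0, against 1.94% and 0.42% of all tested genes, and the difference in rhythm between the diets was called for 0 of them. Maff, a small MAF protein, had an amplitude of 1.55 log2 units in CR with a peak at 14.2 h (edgeR's quasi-likelihood test, adjusted p = 0.0166), against 1.02 in AL (0.301). Osgin1, an NRF2 target that regulates growth, had 0.95 in CR with a peak at 20.1 h (adjusted p = 0.0227), against 0.18 in AL (0.894). Txnip, which binds thioredoxin, had 0.95 in CR with a peak at 10.9 h (adjusted p = 0.0142), against 0.41 in AL (0.565). Ggct, a cyclotransferase of glutathione breakdown, had 0.66 in CR with a peak at 21.9 h (adjusted p = 0.0407), against 0.27 in AL (0.677).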
